A study of Mus musculus with 13 samples.

Results

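The genes described here are 42 interferon-stimulated genes of the mouse, chosen by name as genes that interferons are known to induce and then followed in liver RNA after bile duct ligation (BDL), with and without inhibition of miR-873-5p. All 42 were present in each of the 3 count tables, which list 23725 genes in both tables with anti-miR-873-5p animals and 23079 genes in the table of miR-Ctrl BDL versus no BDL, and all 42 passed the filter on low counts in every comparison. They were read in 5 roles, namely 5 transcription factors, 4 sensors of nucleic acid, 18 antiviral effectors and regulators, 12 interferon-inducible GTPases and 3 genes of antigen processing.

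The 13 mice were C57 animals of 3 months, described in the methods of the study as male C57BL6 mice that are wild type for Gnmt. Livers of 5 mice came from animals without BDL, which the labels call non treated (no BDL). Livers of 4 mice were taken 7 days after BDL from animals that had received miR-Control (miR-Ctrl BDL), and livers of 4 mice came from animals with the same surgery that had received anti-miR-873-5p, a hairpin inhibitor of the microRNA (anti-miR BDL). Either oligonucleotide was given into the tail vein with the carrier Invivofectamine at 60 µg per mouse on days 3 and 5, so both BDL groups share ligation, carrier and injection, whereas the no BDL mice had neither and the effects of surgery and injection on the genes cannot be told apart in the comparisons with them. The comparison of both BDL groups used the 3 mice per group in its table, miR-Ctrl mice 1, 2 and 4 and anti-miR mice 1, 3 and 4, and the other comparisons used all 4 mice of a BDL group and the 5 no BDL mice. Mouse numbers name different animals in different groups.

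Interferons are cytokines that cells release after sensing viral or cellular nucleic acid, or, in the case of interferon gamma, when T and NK cells are activated. Type I and type III interferons signal through JAK kinases to a transcription factor complex that contains Stat2 and Irf9 and binds the interferon-stimulated response element (ISRE), and genes that respond to interferon gamma often carry a gamma-activated site (GAS). The induced proteins degrade viral RNA, block translation, attack the membranes around intracellular microbes and raise antigen presentation, and in the liver they are made by hepatocytes as well as by Kupffer and other immune cells. Ligation of the bile duct is a model of cholestasis, in which retained bile injures the liver.

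The mature sequence of the inhibited microRNA is shown because it is the molecule that separates both BDL groups. It is encoded on the minus strand at chr4:36668556-36668576 of GRCm38.p6, and its seed, bases 2 to 8, is in capitals. The reads counted on its gene, Mir873a, were 0 in every mouse. Libraries of this kind are made from messenger RNA and do not capture mature microRNA, so inhibition could not be read from these counts. The study measured the microRNA separately in livers of both BDL groups and reported its inhibition.
mmu-miR-873a-5p: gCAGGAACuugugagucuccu

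Promoter sequence of RefSeq on GRCm38.p6 was found for 32 of the 42 genes, and the 250 bases before the start of each gene were searched on both strands for an ISRE written GAAANNGAAA and a GAS written TTCNNNGAA. A match is a description of the letters in the window and not a binding site, and overlapping matches were kept, as in Bst2, where the GAS and an ISRE share bases. An ISRE was found for 16 of the 32 genes (50%) against 936 of 27025 genes with a promoter sequence (3.46%), a GAS for 11 (34.4%) against 2197 (8.13%), and both for 7 (21.9%) against 124 (0.459%). The GTPases held an ISRE in 8 of 9 promoters and both motifs in 5, and the antiviral genes held an ISRE in 7 of 13. Among the transcription factors 1 of 5 promoters, that of Stat2, held an ISRE, and those of Irf1 and Irf8 held a GAS, whereas none of the 3 promoters of antigen processing genes held an ISRE and that of Psmb8 held a GAS. No sequence was at hand for Iigp1, Dhx58, Oas2, Usp18, Mx2, Zbp1, Rtp4, Parp14, Gbp6 and Gbp4.

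The windows below are shown for genes whose values are given further on, 30 bases each, 5′ to 3′ on the strand of the gene, with the motif in capitals. Isg15, a ubiquitin-like protein coupled to other proteins, held 3 overlapping ISRE matches, of which the middle one is shown at chr4:156200871-156200900 on the minus strand, 62 bases before the start. Oas1a, which makes the second messenger that activates RNase L, held 2 overlapping ones, of which that 10 bases before the start is shown at chr5:120907526-120907555 on the minus strand. For Oas1a the start is that of its promoter sequence. The annotated gene reaches to position 120907544, so this window lies partly within it. Bst2, which tethers budding virions, also held 2 overlapping ISRE matches. That 114 bases before the start is shown at chr8:71537577-71537606 on the minus strand, and the other, at 120 bases, shares bases with the GAS. In Gbp2, a guanylate-binding protein, the ISRE read on the opposite strand at chr3:142620594-142620623, 49 bases before the start. In Tgtp1, an immunity-related GTPase, the ISRE lay 67 bases before the start at chr11:48992304-48992333 on the minus strand and a GAS 79 bases before it at chr11:48992315-48992344, so that both windows overlap. The GAS of Irf1, a transcription factor that interferon gamma induces, lay at chr11:53769914-53769943 on the plus strand, 81 bases before the start.
Isg15 ISRE: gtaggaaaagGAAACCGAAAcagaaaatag
Oas1a ISRE: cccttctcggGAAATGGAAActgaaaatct
Bst2 ISRE: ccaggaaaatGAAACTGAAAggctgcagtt
Gbp2 ISRE: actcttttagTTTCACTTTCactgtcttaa
Tgtp1 ISRE: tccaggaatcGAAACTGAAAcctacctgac
Tgtp1 GAS: aactagccatTTCCAGGAAtcgaaactgaa
Irf1 GAS: acagcctgatTTCCCCGAAatgatgaggcc

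Many of the genes lie in clusters of related copies. Psmb9, Tap1 and Psmb8 lie side by side at chr17:34182030-34201454, and Ifit2, Ifit3 and Ifit1 at chr19:34550550-34650009, while 8 of the genes are on chromosome 11, 7 on chromosome 5 and 5 on chromosome 3. Reads of 50 nt cannot always separate such copies, and values of the genes that share much sequence are uncertain. Tgtp1 shared 81.2% of its 50-base windows with other genes, mainly Tgtp2, Gbp6 shared 70.7%, Oas1a 57.6% and Ifit3 51.2%, followed by Gbp7, Psmb8, Igtp and Rtp4 at 11.6% to 12.7%. The library kit does not keep strand, so reads of overlapping genes such as Dhx58 and Dhx58os or Psmb9 and Tap1 cannot be told apart either.

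The depth was 12185333 to 19689037 counts per mouse, and each of the 42 genes had at least 9 reads in every mouse. Levels are CPM values after TMM scaling of all 13 mice together, called normalized counts. The livers held the summed hepatocyte markers at 94600 to 110000 normalized counts in no BDL, 43100 to 75000 in miR-Ctrl BDL and 38100 to 85600 in anti-miR BDL, with all 6 markers measured and none at 0. Cholangiocyte markers summed to 10.6 to 14, 42.4 to 79.4 and 37.5 to 92, and Kupffer cell markers to 79 to 500, 523 to 1220 and 276 to 965, in the same order. In bulk liver, a change in the number of cells of a type and a change in RNA per cell cannot be told apart.

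Levels of the genes without BDL spanned a wide range when divided by exon length. Bst2 was the most abundant at 168 ± 42.7 normalized counts per kb (SD, n = 5), followed by the immunity-related GTPases Iigp1 at 53.8 ± 8.69, Igtp at 19.1 ± 9.17 and Irgm2 at 17.1 ± 6.42, and then by Isg15 at 14 ± 5.25. Neighbours in this order from Igtp to Isg15 differed by less than their SD, whereas Bst2 and Iigp1 stood apart. Gbp5, a guanylate-binding protein of inflammasome activation, and Oas3, another oligoadenylate synthetase, were lowest at 0.245 ± 0.107 and 0.302 ± 0.221 normalized counts per kb.

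The genes moved together within a mouse, and mice of 1 group differed widely. Relative to the mean of the no BDL mice, the median log2 ratio over the 42 genes was -0.38, -0.20, -0.13, -0.13 and 0.61 in no BDL mice 1 to 5. It was 1.22, 0.09, -0.90 and 1.81 in miR-Ctrl BDL mice 1 to 4, and 0.30, -0.88, 0.88 and 0.47 in anti-miR mice 1 to 4. Thus miR-Ctrl mice 1 and 4 were high, miR-Ctrl mouse 2 was within the range of the untreated animals, and miR-Ctrl mouse 3 and anti-miR mouse 2, both left out of the deposited table of the BDL groups, were below every mouse without BDL. miR-Ctrl mouse 3 was the lowest of its group for 39 of 42 genes, anti-miR mouse 2 for 41 of 42, and no BDL mouse 5 was the highest of its group for 37 of 42.

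**Figure D1:**
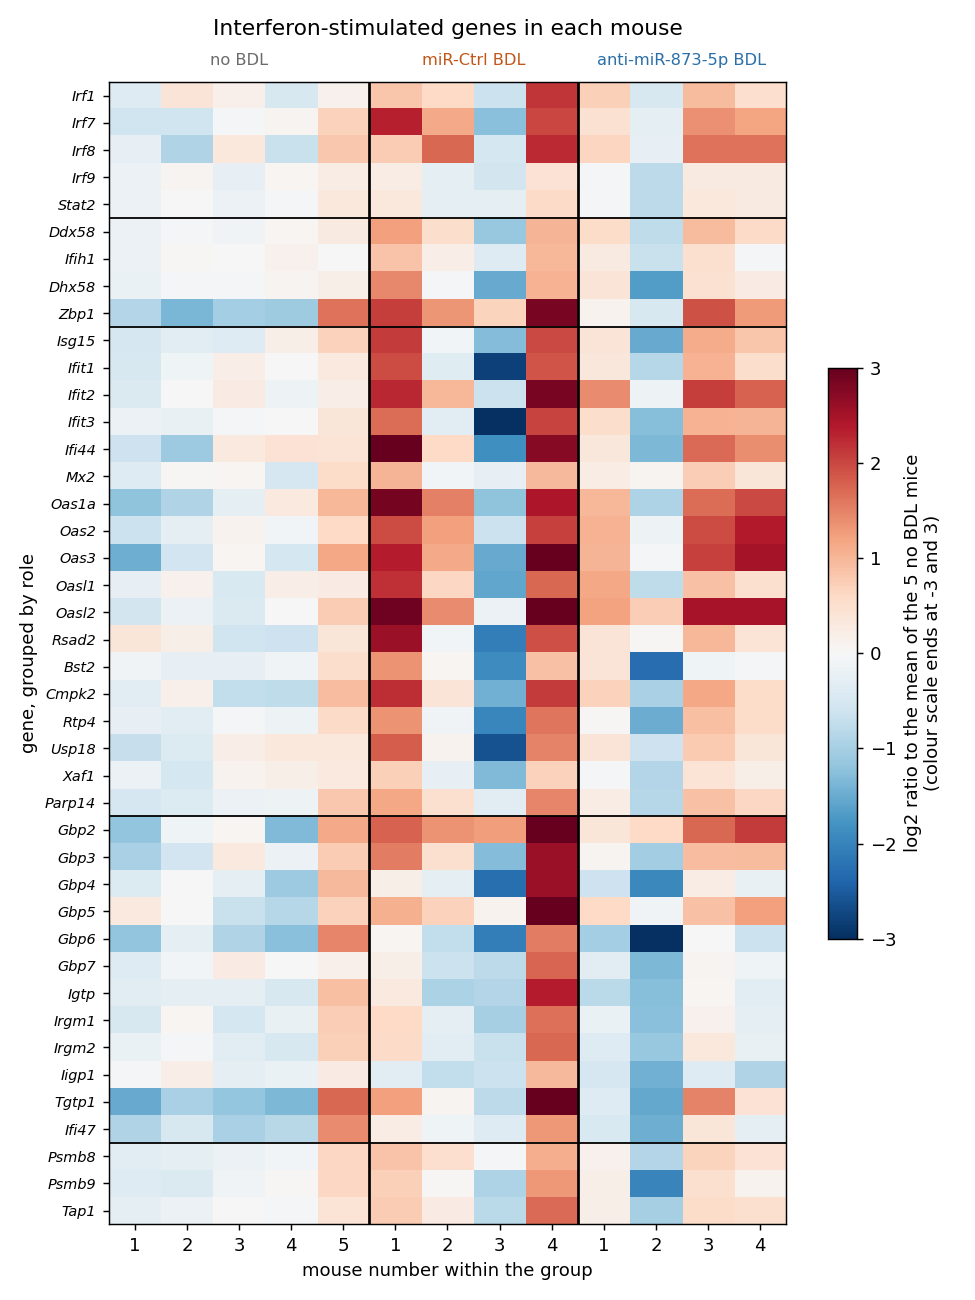
Heat map of the log2 ratio of each of the 42 genes (rows, by role) in each of the 13 mice (columns, by group) to the mean normalized count of the 5 no BDL mice, with the colour scale ending at -3 and 3. miR-Ctrl mice 1 and 4 are mostly above the mean of no BDL, and miR-Ctrl mouse 3 and anti-miR mouse 2 are mostly below it, with medians of -0.90 and -0.88.

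Markers of other cells also differed between these mice. miR-Ctrl mouse 3 had neutrophil markers summing to 196 normalized counts against 14.6 to 56.9 in the other miR-Ctrl mice, over the 4 markers measured. The 10 markers of T and NK cells, the main source of interferon gamma, summed to 18.9 in miR-Ctrl mouse 4 and 5.15 to 6.5 in the other miR-Ctrl mice, to 14.5 in no BDL mouse 5 and 5.34 to 8.37 in the other no BDL mice, and to 3.39 in anti-miR mouse 2 and 7.11 to 10.7 in the other anti-miR mice. Both mice with the lowest interferon-stimulated genes shared the levels of some further markers, picked after their values were seen. The 4 endothelial markers summed to 26.9 in miR-Ctrl mouse 3 and 36.6 in anti-miR mouse 2, the lowest of their groups, with Stab2 at 8.48 and 8.82 against 19.2 or more in every other mouse. Ccr2, a receptor of recruited monocytes, was at 2.49 and 1.36 in these mice against 13 to 30.2 in the other mice with BDL. The hepatocyte enzyme Tat was at 3527 and 4808 against 424 to 1145 in all other mice. Other markers of the same lists did not set both mice apart in the same direction. The macrophage marker Itgam was at 28.9 and 10.3 against 4.78 to 17.6 in the other mice with BDL. The endothelial marker Lyve1 was at 5.32 and 15.7 against 3.34 to 11.2. The hepatocyte marker Cps1 was at 743 and 2616 against 1159 to 1947, and Alb was at 34220 and 65960. Monocyte and macrophage markers were also highest of the untreated mice in no BDL mouse 5, at 167 against 37.4 to 81.1. All 10 T and NK markers were measured, with Ncr1, Gzmb or Cd3g at 0 in some mice. Most of them went with the sums of their list, but Klrb1c was lowest of all mice in miR-Ctrl mouse 4, at 0.0605. Kupffer and monocyte and macrophage markers were above 0 in all mice. The part of these cells in the levels of the interferon-stimulated genes was not tested.

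**Figure D2:**
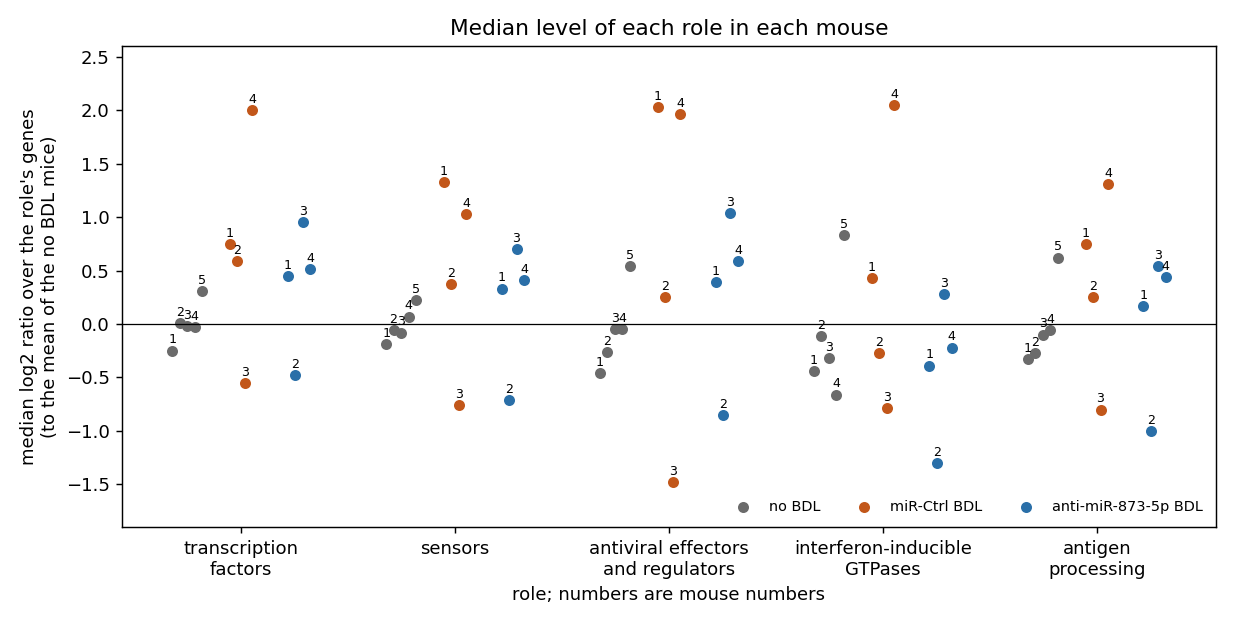
Median log2 ratio to the mean of the 5 no BDL mice over the genes of each of the 5 roles, with 1 point per mouse in each of the 3 groups. The mice of miR-Ctrl BDL are spread most widely, from -1.48 to 2.03 for the antiviral genes and from -0.79 to 2.05 for the GTPases.

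The medians of the antiviral genes and of the GTPases differed in size within some mice. miR-Ctrl mouse 1 had a median log2 ratio of 2.03 for the antiviral genes and 0.43 for the GTPases, while miR-Ctrl mouse 4 had 1.96 and 2.05. miR-Ctrl mouse 4 was the highest of its group for all 12 GTPases. Anti-miR mice 1, 3 and 4 had antiviral medians of 0.39, 1.04 and 0.59 and GTPase medians of -0.39, 0.28 and -0.22, which rank these mice in the same order. The antiviral genes are classically induced by type I interferon, and most of the GTPases respond strongly to interferon gamma as well.

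**Figure D3:**
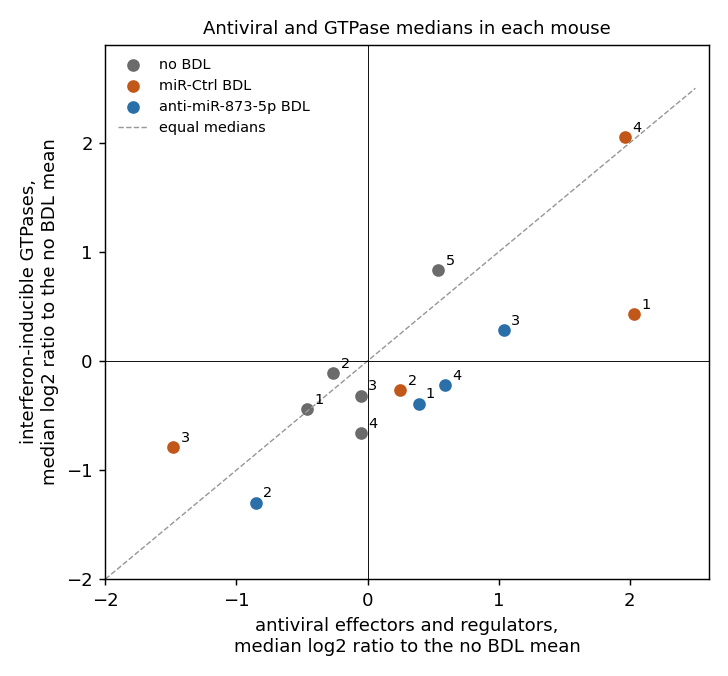
Median log2 ratio to the mean of no BDL of the 18 antiviral genes (horizontal axis) and of the 12 GTPases (vertical axis), 1 point per mouse coloured by group, with a dashed line where both are equal. miR-Ctrl mouse 1 lies far below the line at 2.03 and 0.43, and miR-Ctrl mouse 4 lies near it at 1.96 and 2.05.

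The first comparison asked how 7 days of BDL with the control oligonucleotide changed the genes. Against no BDL, all 42 had a positive log2 fold change in miR-Ctrl BDL, with a median of 0.99 against -0.01 over the 13072 genes tested. With edgeR's quasi-likelihood test and a threshold of 0.05 on the adjusted p, 7 of the 42 were called higher and 0 lower, against 19.1% of all genes tested called higher and 16.6% lower, so the share called among the interferon-stimulated genes was near the background. At an unadjusted p under 0.05, 18 of the 42 were higher against a background of 23.7%, and 13 were called higher by DESeq2, which called 21.5% of all genes higher. The groups did not overlap for 1 gene, Gbp2, against 14.8% of all genes in each direction. The called genes were the sensor Zbp1, the antiviral genes Ifit2, Oas1a, Oas2 and Oasl2, and the GTPases Gbp2 and Gbp5. Gbp5 is among the genes that the study listed as downregulated in anti-miR BDL versus miR-Ctrl BDL. The miR-Ctrl animals are shared, so Gbp5 is not independent evidence of its direction. Without it the median was 0.94 with 6 genes called.

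By role, the median log2 fold change was 1.29 for the antiviral genes with 4 of 18 called higher, 1.08 for the transcription factors with 0 of 5 called, 0.77 for the GTPases with 2 of 12, 0.68 for antigen processing with 0 of 3, and 0.64 for the sensors with 1 of 4. DESeq2 called 7 antiviral genes, 3 transcription factors, and 1 gene of each other role. It gave no adjusted p to 2 GTPases, Gbp2 and Gbp5, which are the GTPases that edgeR called.

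The count of calls depended on single mice. It was 2, 3, 3, 2 and 14 higher without no BDL mouse 1, 2, 3, 4 or 5 in turn, and 3, 5, 29 and 2 without miR-Ctrl mouse 1, 2, 3 or 4. Of all genes, 15.6% to 16.2% were called higher without any of no BDL mice 1 to 4 or miR-Ctrl mice 1, 2 or 4, shares above those of the 42 genes, and 20% without no BDL mouse 5. The median fell to 0.49 without miR-Ctrl mouse 4, when 31 genes stayed positive, and was 1.34 without miR-Ctrl mouse 3, when 22.2% of all genes were called higher. Without both miR-Ctrl mouse 3 and no BDL mouse 5, a setting chosen after seeing the data, 36 of 42 genes were called higher with a median of 1.48, against 23.6% of all genes. Of the 7 called genes, Oasl2 and Gbp2 stayed called in edgeR whichever single mouse was left out, though DESeq2 gave Gbp2 no adjusted p. Under scaling by library size alone 40 of the 42 genes were called higher, as were 71.6% of all genes, whose median moved to 0.79.

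**Figure D4:**
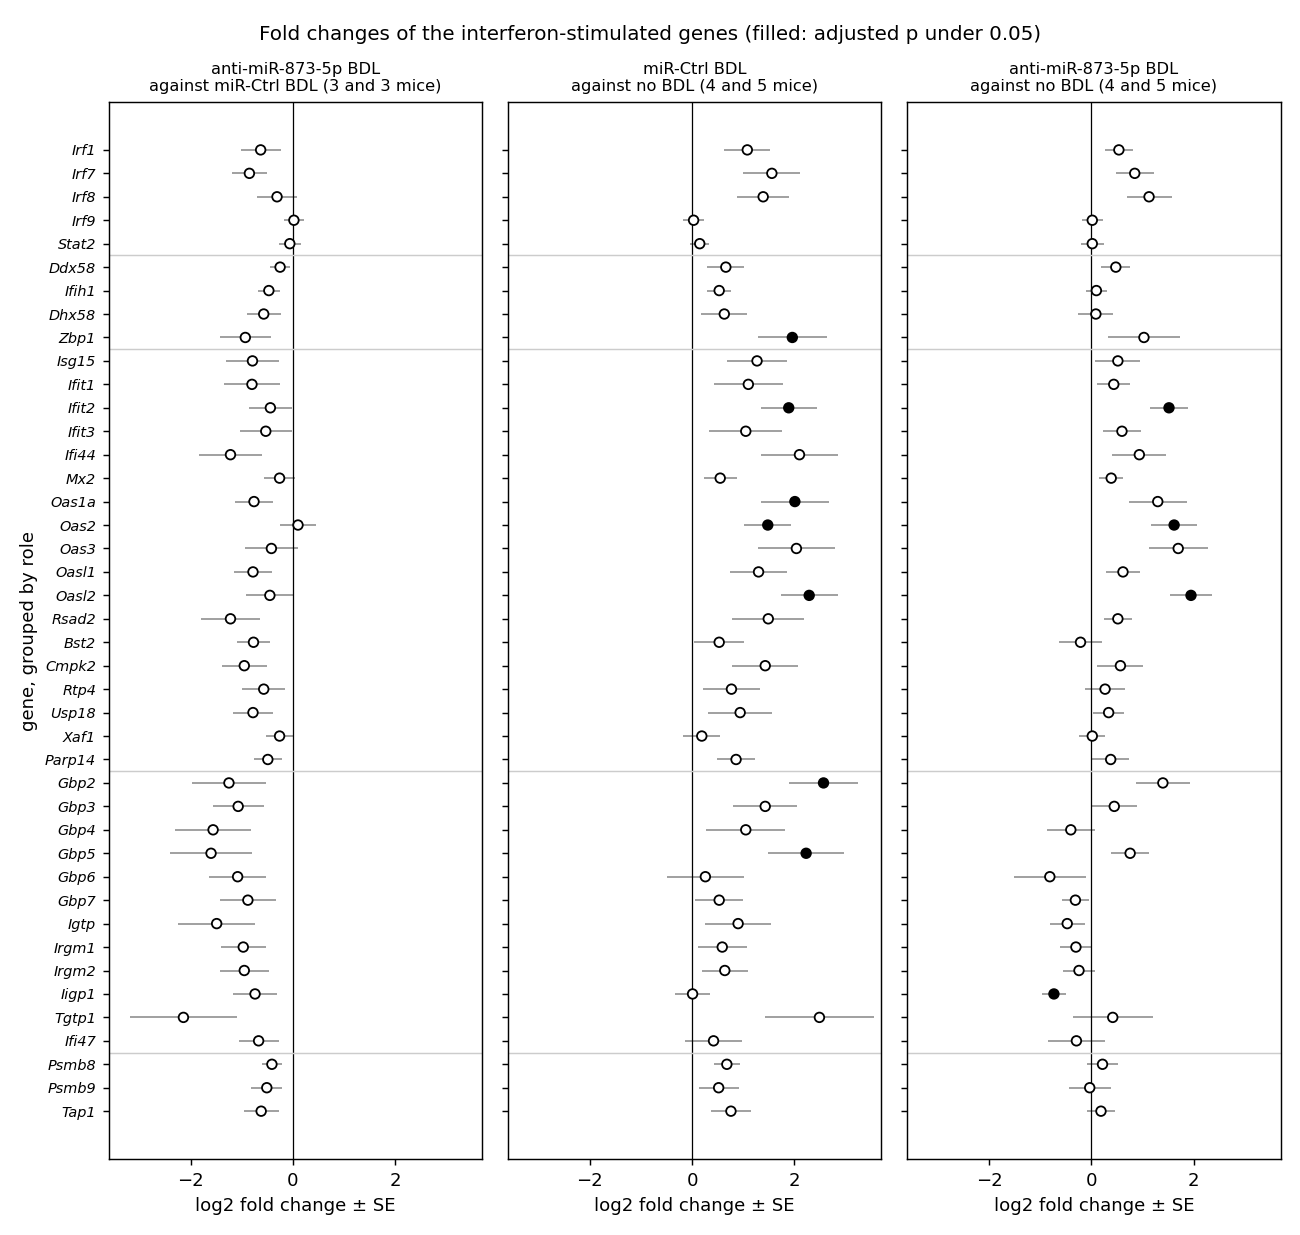
Log2 fold change of each of the 42 genes with its SE (bars) in the 3 comparisons, by role, with filled points for genes at an adjusted p under 0.05 in edgeR's test. In miR-Ctrl BDL versus no BDL all points lie above 0 and 7 are filled, in anti-miR BDL versus no BDL 4 are filled, and in anti-miR BDL versus miR-Ctrl BDL none is filled.

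Among the transcription factors, Irf7, the master regulator of type I interferon production, was the most abundant when divided by exon length, at a mean of 22.6 normalized counts per kb over the 13 mice. Before that division it was at 30.7, 30.9, 45.8, 49.8 and 75.9 normalized counts in no BDL mice 1 to 5, at 237, 102, 19.6 and 187 in miR-Ctrl BDL mice 1 to 4, and at 63.6, 37.8, 121 and 107 in anti-miR mice 1 to 4. miR-Ctrl mice 1, 2 and 4 were above every untreated mouse and miR-Ctrl mouse 3 was below them all. Its log2 fold change was 1.56 ± 0.56 (SE) in miR-Ctrl BDL versus no BDL, just short of the threshold in edgeR (adjusted p = 0.0537). Irf8, which directs the development of monocytes and dendritic cells, was at 6.11, 3.90, 9.03, 4.58 and 12.8 in no BDL, at 12.3, 23.9, 5.07 and 34.2 in miR-Ctrl BDL, and at 11.3, 6.18, 22.5 and 22.7 in anti-miR BDL. All 3 groups overlapped, and the difference of 1.39 ± 0.51 between miR-Ctrl BDL and no BDL was not called (edgeR adjusted p = 0.0595). The remaining factors did not pass either, with log2 fold changes of 1.08 ± 0.45 for Irf1, 0.15 ± 0.19 for Stat2 and 0.03 ± 0.20 for Irf9, the last 2 being parts of the complex that binds the ISRE in the type I response.

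Among the sensors, Ifih1 (MDA5, a sensor of long double-stranded RNA) was at 29.5, 34.3, 33.6, 36.7 and 33.4 in no BDL, 60.4, 38.6, 25.7 and 67.2 in miR-Ctrl BDL, and 40.3, 21.1, 46.4 and 32.9 in anti-miR BDL. Its tight range in untreated liver was crossed upwards by miR-Ctrl mice 1, 2 and 4 and by anti-miR mice 1 and 3. It was crossed downwards by miR-Ctrl mouse 3 and anti-miR mouse 2. The fold change of 0.53 ± 0.24 in miR-Ctrl BDL versus no BDL was not called (edgeR adjusted p = 0.113). Zbp1, a sensor of Z-form nucleic acid that can start necroptosis, was at 5.94, 4.28, 5.45, 5.24 and 34.0 in no BDL, 46.4, 27.4, 17.5 and 79.2 in miR-Ctrl BDL, and 11.8, 7.92, 41.4 and 26.7 in anti-miR BDL. Every mouse with BDL was above no BDL mice 1 to 4, and no BDL mouse 5 lay within the range of both BDL groups. Zbp1 was higher in miR-Ctrl BDL by 1.96 ± 0.68 (edgeR adjusted p = 0.0461), a call that was lost without any of no BDL mice 1 to 4 or miR-Ctrl mice 1, 2 or 4 (adjusted p = 0.061 to 0.139). Ddx58 (RIG-I) and Dhx58 (LGP2), the other sensors of viral RNA, differed by 0.66 ± 0.36 and 0.63 ± 0.45 and were not called.

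Oasl2, an oligoadenylate synthetase-like protein, showed the largest difference among the antiviral genes. It was at 3.44, 4.47, 3.75, 4.99 and 8.51 normalized counts in no BDL, 38.0, 13.4, 4.49 and 41.5 in miR-Ctrl BDL, and 11.6, 8.45, 28.1 and 28 in anti-miR BDL. miR-Ctrl mouse 3 was the one miR-Ctrl mouse within the range of no BDL, and of the anti-miR mice only mouse 2 was below no BDL mouse 5. The log2 fold change in miR-Ctrl BDL was 2.29 ± 0.56 (edgeR adjusted p = 0.0113), and it was 1.91 to 2.62 with adjusted p of 0.000828 to 0.0346 when single mice were left out. Ifit2, which binds RNA and blocks its translation, was at 2.5, 3.42, 4.01, 3.03 and 3.90 in no BDL, 16.3, 6.68, 2.16 and 24.4 in miR-Ctrl BDL, and 9, 3.02, 14.2 and 11.5 in anti-miR BDL. Apart from miR-Ctrl mouse 3 and anti-miR mouse 2, all mice with BDL were above all mice without, and the difference of 1.89 ± 0.55 in miR-Ctrl BDL was called (edgeR adjusted p = 0.0225). This call was lost without no BDL mouse 1 or 4 or miR-Ctrl mouse 1 or 4, with adjusted p of 0.0511 to 0.0762.

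The other called antiviral genes were both oligoadenylate synthetases. Oas1a was at 2.67, 3.33, 5.03, 7.53 and 12.3 in no BDL and at 45.4, 17.7, 2.66 and 33.1 in miR-Ctrl BDL, and rose by 2.01 ± 0.67 (edgeR adjusted p = 0.041). Oas2 was at 2.67, 3.42, 4.52, 3.93 and 6.28 in no BDL and at 16.3, 9.85, 2.66 and 17.3 in miR-Ctrl BDL, and rose by 1.48 ± 0.46 (edgeR adjusted p = 0.0298). For both, miR-Ctrl mouse 3 was level with no BDL mouse 1, the lowest untreated mouse, and the other 3 miR-Ctrl mice were above every no BDL mouse. Either call was lost without any of no BDL mice 1 to 4 or miR-Ctrl mice 1, 2 or 4 (adjusted p = 0.0505 to 0.125). The values of Oas1a are uncertain because its copies Oas1g and Oas1b share its sequence.

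Ifi44, a cytoplasmic protein named for its induction by interferon, was at 2.5, 1.81, 4.69, 5.16 and 5.09 in no BDL, 33.2, 5.85, 1.08 and 25.3 in miR-Ctrl BDL, and 4.91, 1.51, 12.4 and 10.1 in anti-miR BDL. Its 2 high miR-Ctrl mice gave a difference of 2.10 ± 0.75 that stayed short of the threshold (edgeR adjusted p = 0.0523). Bst2 was at 142, 128, 128, 141 and 220 in no BDL, 389, 157, 40.8 and 278 in miR-Ctrl BDL, and 199, 31.3, 139 and 147 in anti-miR BDL. miR-Ctrl mouse 3 and anti-miR mouse 2 had less Bst2 than any other mouse, and the fold change of 0.53 ± 0.49 was not called (edgeR adjusted p = 0.435). The remaining 12 antiviral genes had log2 fold changes of 0.19 (Xaf1) to 2.04 (Oas3) in miR-Ctrl BDL versus no BDL and were not called, among them Isg15 at 1.27 ± 0.59, the translation inhibitor Ifit1 at 1.10 ± 0.68 and Rsad2 (viperin) at 1.49 ± 0.70.

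The GTPases attack the vacuoles of intracellular microbes. Gbp2 was at 2.15, 4.47, 5.11, 1.96 and 10.9 in no BDL, 16.8, 12.5, 11.7 and 75.5 in miR-Ctrl BDL, and 6.35, 7.47, 16.3 and 21.1 in anti-miR BDL. All 4 miR-Ctrl mice, mouse 3 included, were above all 5 no BDL mice, and Gbp2 was higher by 2.57 ± 0.68 (edgeR adjusted p = 0.0153). Without miR-Ctrl mouse 4 the difference was 1.49 and stayed called (adjusted p = 0.0475). Gbp5 was at 0.9 to 2.62 in no BDL and at 3.40, 2.63, 1.75 and 22.6 in miR-Ctrl mice 1 to 4. Its difference of 2.23 ± 0.74 was called (edgeR adjusted p = 0.0404) and rested on miR-Ctrl mouse 4, without which it was 0.69 (adjusted p = 0.208), and it was also lost without any of no BDL mice 1 to 4 (adjusted p = 0.0713 to 0.0884).

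**Figure D5:**
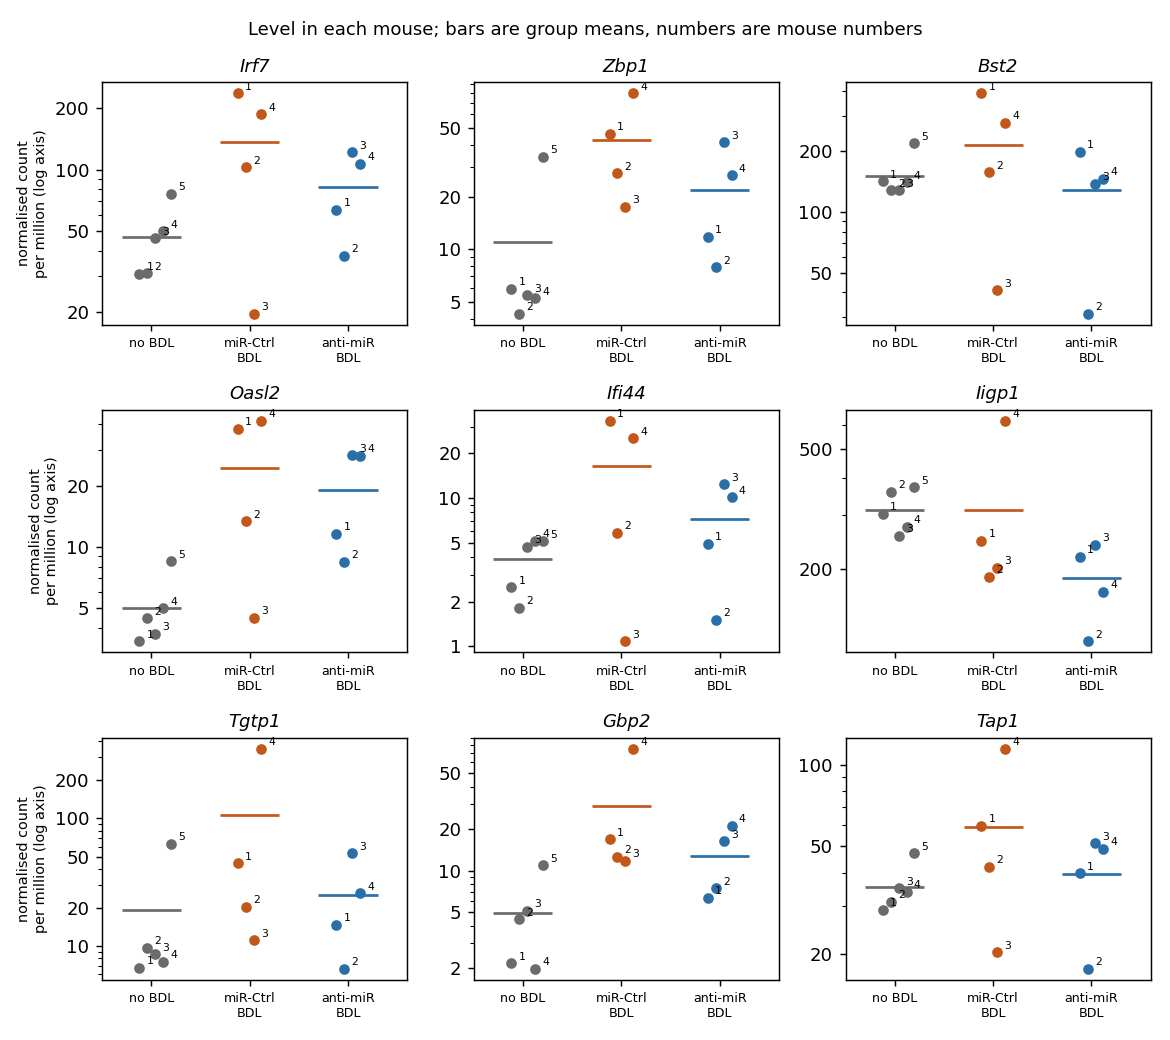
Normalized counts (CPM after TMM scaling, log axis) of Irf7, Zbp1, Bst2, Oasl2, Ifi44, Iigp1, Tgtp1, Gbp2 and Tap1, with 1 point per mouse and a bar at the mean of each of the 3 groups. In the panel of Gbp2 the 4 miR-Ctrl mice lie at 11.7 to 75.5 and the 5 no BDL mice at 1.96 to 10.9, and in that of Iigp1 the 4 anti-miR mice lie at 115 to 240 and the no BDL mice at 257 to 372.

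Tgtp1, with an SE of 1.07, had the widest error of the 42 genes in miR-Ctrl BDL versus no BDL. It was at 6.72, 9.70, 8.61, 7.53 and 62.9 in no BDL, 44.5, 20.2, 11.1 and 352 in miR-Ctrl BDL, and 14.6, 6.64, 53.1 and 25.9 in anti-miR BDL. No BDL mouse 5 exceeded 3 of the 4 miR-Ctrl mice, and the difference of 2.49 ± 1.07 was not called (edgeR adjusted p = 0.0972). Iigp1 was at 304, 359, 257, 275 and 372 in no BDL, 247, 188, 201 and 618 in miR-Ctrl BDL, and 219, 115, 240 and 168 in anti-miR BDL. miR-Ctrl mice 1 to 3 were below every untreated mouse and miR-Ctrl mouse 4 was above them all, giving 0.01 ± 0.34 in miR-Ctrl BDL versus no BDL (edgeR adjusted p = 0.983). Without miR-Ctrl mouse 4 Iigp1 was called lower, at -0.55 (adjusted p = 0.0437). The other 8 GTPases had positive differences of 0.26 (Gbp6) to 1.43 (Gbp3) that were not called.

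Among the antigen processing genes, Tap1, a subunit of the peptide transporter, was at 29.2, 31.2, 34.9, 34.0 and 47.1 in no BDL, 59.5, 42.1, 20.3 and 115 in miR-Ctrl BDL, and 39.8, 17.6, 51.3 and 48.8 in anti-miR BDL. Psmb8, a catalytic subunit of the immunoproteasome, was at 25.2, 26.2, 28.2, 30.1 and 48.6 in no BDL, 57.6, 44.8, 31.0 and 67.7 in miR-Ctrl BDL, and 34.5, 17.1, 50.1 and 42.8 in anti-miR BDL. In both genes miR-Ctrl mouse 4 was the highest of all mice. The differences of 0.76 ± 0.39 for Tap1, 0.68 ± 0.25 for Psmb8 and 0.52 ± 0.39 for Psmb9, the neighbouring proteasome subunit, were not called (edgeR adjusted p = 0.161, 0.0598 and 0.331).

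The second comparison set anti-miR BDL against the same 5 no BDL mice, so its values are not independent of those above. The median log2 fold change of the genes was 0.41 against -0.01 over the 13130 genes tested, with 32 positive and 10 negative. In edgeR 3 were called higher and 1 lower, against 13.1% of all genes called higher and 8.44% lower, and at an unadjusted p under 0.05 there were 8 higher against a background of 20.1%. The groups did not overlap for 0 genes higher and 1 lower, against 10.1% and 8.23% of all genes. DESeq2 called 6 higher and 1 lower, and 16.1% of all genes higher. Without Gbp5 the median was 0.39.

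The genes called higher were Oasl2 at 1.95 ± 0.41 (edgeR adjusted p = 0.0108), Oas2 at 1.62 ± 0.45 (adjusted p = 0.0309) and Ifit2 at 1.52 ± 0.38 (adjusted p = 0.0207), all antiviral. They were also called in miR-Ctrl BDL versus no BDL. Oas2 was at 8.62, 3.77, 16.1 and 21.6 in anti-miR mice 1 to 4, of which mouse 2 was within the range of no BDL and the others above it. Oasl2 stayed called whichever mouse was left out (adjusted p = 0.00288 to 0.0381). Oas2 was lost without any of no BDL mice 1 to 4 or anti-miR mice 3 or 4, and Ifit2 without no BDL mouse 1 or 4 or anti-miR mouse 3 or 4.

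Iigp1 was the gene called lower, by -0.73 ± 0.23 (edgeR adjusted p = 0.0469), and all 4 anti-miR mice, at 115 to 240 normalized counts, were below all 5 no BDL mice, at 257 to 372. The call was lost without any of the no BDL mice or anti-miR mice 3 or 4 (adjusted p = 0.0504 to 0.12), and under scaling by library size alone the value was 0.12 (adjusted p = 0.659). The GTPases as a role had a median of -0.29 with 8 of 12 negative, in contrast to 0.55 for the antiviral genes with 17 of 18 positive. The largest of the negative values was that of Gbp6 at -0.81 ± 0.70, and Gbp2 and Gbp5 were positive at 1.40 ± 0.53 and 0.76 ± 0.37, none of which was called. Tgtp1 differed by 0.42 ± 0.78 (edgeR adjusted p = 0.733). Under scaling by library size alone, all 42 genes were positive, 31 being called higher and 0 lower against 76.6% of all genes called higher, while the median of all genes moved from -0.01 to 0.82, and the genes exceeded that median by 0.44.

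The transcription factors had a median of 0.54, with Irf8 furthest from 0 at 1.13 ± 0.44 (edgeR adjusted p = 0.0922) and Irf7 at 0.85 ± 0.37 (adjusted p = 0.126). The sensors had a median of 0.29, with Zbp1 at 1.03 ± 0.70 (adjusted p = 0.326), and antigen processing one of 0.19, with Psmb8 at 0.22 ± 0.30 (adjusted p = 0.643). None of the genes of these roles was called by edgeR, and DESeq2 called 1 transcription factor.

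The count of calls here again moved with single mice. Without no BDL mouse 1, 2, 3, 4 or 5 it was 1, 2, 2, 1 and 7 higher, and without anti-miR mouse 1, 2, 3 or 4 it was 3, 15, 1 and 1 higher. The shares of all genes called higher were 8.83%, 8.64%, 8.32%, 8.63% and 14.5% in the former settings, and 13.8%, 18.4%, 6.78% and 7.13% in the latter. Without anti-miR mouse 2 the median was 0.63, and without anti-miR mouse 3 it was 0.14. Without both anti-miR mouse 2 and no BDL mouse 5, chosen after seeing the data, 28 genes were called higher and 0 lower with a median of 0.76, against 20.4% of all genes called higher.

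The third comparison set anti-miR BDL versus miR-Ctrl BDL, groups that differ in the oligonucleotide given, with 3 mice per group that are also part of the comparisons above. Of the 42 genes, 40 had a negative and 2 a positive log2 fold change, with a median of -0.75 against 0.01 over the 13746 genes tested. In edgeR 0 were called, with adjusted p of 0.775 to 0.988, as were 0% of all genes higher and 0% lower. At an unadjusted p under 0.05, 2 of the 42 were lower, Irf7 and Bst2, against a background of 2.57% of all genes, and DESeq2 called 0, with 12 of the 42 at an unadjusted p under 0.05 beside 845 of all 13746 genes in that test. The groups did not overlap for 0 of the 42 genes, against 6.59% of all genes higher and 4.77% lower. Gbp5, which the study listed as downregulated in this comparison, differed by -1.6 ± 0.81 and was not called here (edgeR adjusted p = 0.782). Without Gbp5 the median was -0.74.

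The median was -1.07 for the GTPases, with 12 of 12 negative from -2.14 to -0.67, -0.67 for the antiviral genes, -0.52 for the sensors, -0.51 for antigen processing and -0.31 for the transcription factors. Tgtp1 had the largest difference at -2.14 ± 1.04 (edgeR adjusted p = 0.781), with 14.6, 53.1 and 25.9 normalized counts in anti-miR mice 1, 3 and 4 against 44.5, 20.2 and 352 in miR-Ctrl mice 1, 2 and 4. Without miR-Ctrl mouse 4 it was -0.06 (adjusted p = 0.999). Gbp2 likewise went from -1.25 ± 0.73 (adjusted p = 0.811) to -0.01 without that mouse.

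Irf7 differed by -0.85 ± 0.35 and Bst2 by -0.77 ± 0.32 (edgeR adjusted p = 0.775 for both). For Irf7, miR-Ctrl mice 1 and 4 were above all anti-miR mice in the table, and miR-Ctrl mouse 2 was below anti-miR mice 3 and 4. Ifi44 differed by -1.22 ± 0.61 (adjusted p = 0.781), Zbp1 by -0.93 ± 0.50 (adjusted p = 0.802), Iigp1 by -0.74 ± 0.43 (adjusted p = 0.809) and Tap1 by -0.62 ± 0.34 (adjusted p = 0.802). Oasl2, called in both comparisons with no BDL like Oas2 and Ifit2, differed by -0.45 ± 0.47 (adjusted p = 0.882). The positive values were those of Irf9 at 0.02 ± 0.19 and Oas2 at 0.10 ± 0.35. In each case the gap between the groups was within the range of the mice.

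Leaving out miR-Ctrl mouse 4 brought the median of the 42 genes to -0.20 with 9 positive, and leaving out the other mice of the table gave -0.51 without miR-Ctrl mouse 1, -1.04 without miR-Ctrl mouse 2, and -0.60, -0.80 and -0.68 without anti-miR mouse 1, 3 or 4. With all 4 mice of each BDL group, in the 39 genes whose counts agreed between tables, the median was -0.60 with 0 called. The T and NK markers summed to 18.9 in miR-Ctrl mouse 4 and to 6.5 and 6.03 in miR-Ctrl mice 1 and 2. In anti-miR mice 1, 3 and 4 they summed to 7.11 to 10.7. Only miR-Ctrl mouse 4 was thus above the anti-miR mice in these markers, and miR-Ctrl mice 1 and 2 were below them. The part of these cells was not tested.

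Other genes of the interferon pathway, fixed as a list of 32, were read beside the 42. The ligands were at or near 0. Ifna4, Ifnl2 and Ifnl3 had 0 reads in every mouse, Ifnb1 (interferon beta) had 1 read in anti-miR mouse 2 and 0 elsewhere, and Ifng (interferon gamma) had 0 to 3 reads per mouse. At this depth no difference in the RNA of these 5 ligands could be detected. Other interferon ligands were not read, among them Ifnz, which the study listed as downregulated in anti-miR BDL versus miR-Ctrl BDL. In miR-Ctrl BDL versus no BDL, 14 of 26 tested pathway genes were called higher and 3 lower with a median of 0.73, beside 19.1% and 16.6% of all genes. In anti-miR BDL versus no BDL 7 were called higher and 1 lower with a median of 0.19, beside 13.1% and 8.44% of all genes, and between both BDL groups 0 of 27 with a median of -0.20.

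Among the receptors, the chain Ifnar1 for type I interferon differed by 0.05 ± 0.12 in miR-Ctrl BDL, 0.06 ± 0.12 in anti-miR BDL, and 0.01 ± 0.14 between both BDL groups, none called. The interferon gamma receptor chain Ifngr1 rose by 1.42 ± 0.17 in miR-Ctrl BDL (edgeR adjusted p = 0.000415) and by 1.34 ± 0.20 in anti-miR BDL (adjusted p = 0.00285). Its values of 34.7 to 54 normalized counts in miR-Ctrl BDL and 27.2 to 49.9 in anti-miR BDL did not overlap with 13.2 to 21.1 in no BDL, and miR-Ctrl mouse 3 and anti-miR mouse 2 were within the range of their groups. Its partner Ifngr2 rose by 1.10 and 0.80 and the chains of the type III receptor, Ifnlr1 by 2.88 and 2.99 and Il10rb by 1.51 and 1.27. Each of these was called in both comparisons, Ifnlr1 from low levels of 0.0861 to 0.426 normalized counts in no BDL.

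Signalling genes called higher in miR-Ctrl BDL versus no BDL were the kinases Jak1 at 0.41 and Jak2 at 0.44, the DNA-sensing adaptor Tmem173 (STING) at 1.90 and its enzyme Mb21d1 (cGAS) at 0.98, the adaptor Myd88 at 0.95 and the RNA sensors Tlr3 at 0.77 and Tlr7 at 1.56. Tmem173 and Tlr7 were also called in anti-miR BDL, at 1.58 and 2.04. Mavs, the mitochondrial adaptor of RNA sensing, was lower in both, at -0.72 and -0.54, and the transcription factors Irf3 and Irf2 were lower in miR-Ctrl BDL, at -0.37 and -0.60.

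Socs1 and Socs3, feedback inhibitors of JAK kinases, and the phosphatase Ptpn6 were called higher in miR-Ctrl BDL at 3.56 ± 1.03 (edgeR adjusted p = 0.0225), 2.82 ± 0.68 (adjusted p = 0.01) and 0.68 ± 0.16 (adjusted p = 0.00876), and Socs3 also in anti-miR BDL, at 1.91 ± 0.42 (adjusted p = 0.0134). Socs1 was at 18.4 normalized counts in miR-Ctrl mouse 3 and 5.87 in miR-Ctrl mouse 4 against 0.911 and 1.19 in miR-Ctrl mice 1 and 2, and Socs3 was at 267 in miR-Ctrl mouse 3 against 22.0 to 55.1 in the rest of its group. Anti-miR mouse 2, which was as low in the 42 genes as miR-Ctrl mouse 3, had the least Socs1 of its group. Its Socs1 was at 0.377 against 0.629 to 1.02, or 5 reads against 10 to 17. Its Socs3 was at 60.1 against 20.6 to 74.6 in the other anti-miR mice. The part of these inhibitors in the levels of the 42 genes was not tested. Single mice were not left out in turn for the pathway genes.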

How the data were processed

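Liver RNA of 13 mice was made into TruSeq RNA v2 libraries, sequenced by the authors as single reads of 50 nt on a HiScanSQ and mapped to mm10 with TopHat. The submitters' processing notes also name CASAVA 1.8.2, FastQC, Trim Galore and DESeq2. The program that counted reads and its annotation are not given in the sources used here. The authors deposited raw counts per gene in 1 table per comparison, after removing outliers, and 0 columns were left unused. Totals of 12185333 to 19689037 counts per mouse set the precision of low genes.

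Counts were analysed per table in R 4.3.3 with edgeR 4.0.16 (filterByExpr, TMM, quasi-likelihood test, Benjamini-Hochberg adjustment over all tested genes, threshold 0.05). Standard errors were taken from each gene's fold change and the F of its test (|log2 fold change|/√F). Levels used the 22246 genes with the same counts in the tables for scaling over all 13 mice. Counts of Irf7, Ifi47 and Gbp3, of the pathway gene Socs1 and of the marker Cps1 differed between tables, and those of the no BDL tables were taken. Alternatives were library-size scaling, DESeq2 size factors, DESeq2 1.42.0, other filters, all groups in 1 fit, all 4 BDL mice, mouse number as a block, and leaving out each mouse. The test was checked on simulated counts. The labels describe separate mice, grouped by their titles.

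A gene of the pathway list is not reported here by name. The 42 genes, the lists and the tests were chosen with earlier results of these data known. Per role, values of every mouse are given for the gene of highest mean level and those with the largest fold change in each comparison, and tests also for every called gene. Isg15, Ifit1, Rsad2 and other genes named beside a range were picked after their values were seen. Promoters, microRNA and coordinates are from RefSeq (GRCm38.p6), shared windows from GENCODE M21, and figures were drawn with matplotlib 3.10.9.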

Additional observations from a re-analysis of the deposited data

Results flagged for a closer look

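In groups of 4 or 5 mice, 17 of 126 combinations of gene and group had 1 mouse far from the others by Dixon's test. The test's rate of about 1 in 20 by chance holds for independent values. The genes moved together within a mouse, so the 17 cannot be set against that rate. No BDL mouse 5 was the far mouse for 10 genes, with normalized counts of 34 for Zbp1, 220 for Bst2, 22.2 for Rtp4, 59.6 for Parp14, 69.5 for Gbp6, 71.7 for Igtp, 104 for Irgm2, 62.9 for Tgtp1, 91.3 for Ifi47 and 48.6 for Psmb8, each the highest of its group. miR-Ctrl BDL mouse 4 was the far mouse for 6 GTPases, at 75.5 for Gbp2, 50.4 for Gbp4, 22.6 for Gbp5, 198 for Igtp, 618 for Iigp1 and 352 for Tgtp1, again the highest of its group. Anti-miR BDL mouse 2 was far below its group for Dhx58, at 4.75. These mice were also those with the highest or lowest T and NK marker sums of their groups, 14.5, 18.9 and 3.39 normalized counts. Most single markers went with these sums, but not all. Cd3e was at 0.636 in no BDL mouse 5 and 0.767 in no BDL mouse 3. Klrb1c was lowest of all mice in miR-Ctrl mouse 4, at 0.0605. Cd8b1 gave 2.715 of the 3.39 in anti-miR mouse 2 and was at 2.048 in anti-miR mouse 3.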

How the results depend on the processing

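Direction and calls of the 42 genes were recomputed under each alternative, and the cause of the changes below was not tested. Single values kept their direction and side of the threshold in 564 of 582 cases in anti-miR versus miR-Ctrl, 553 of 709 in miR-Ctrl versus no BDL and 567 of 711 in anti-miR versus no BDL.

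Scaling by library size alone moved the median of all genes from about 0 to 0.79 in miR-Ctrl and 0.82 in anti-miR versus no BDL. It called 40 of the 42 genes higher in miR-Ctrl (median 1.81, or 1.02 above that of all genes) and 31 higher and 0 lower in anti-miR (median 1.26, or 0.44 above). In anti-miR versus no BDL it turned Bst2 to 0.642, Gbp4 0.465, Gbp6 0.0715, Gbp7 0.521, Igtp 0.381, Irgm1 0.565, Irgm2 0.62, Iigp1 0.117, Ifi47 0.578 and Psmb9 0.823, and between both BDL groups Stat2 to 0.00575. DESeq2 called 13 genes higher in miR-Ctrl and 6 in anti-miR versus no BDL. With all 3 groups in 1 fit, in 39 genes, 2 were higher and 0 lower in anti-miR versus no BDL, where Irf9 was -0.0139, Stat2 -0.00609 and Xaf1 -0.0109, while Iigp1 was -0.0114 in miR-Ctrl versus no BDL and Irf9 -0.0172 between both BDL groups (-0.0159 with all 4 mice of each).

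The correlation of the deviations of mice with the same number was over 0.1 in 2 of 12 pairs, numbers 1 (0.535) and 4 (0.219) of both BDL groups, and -0.371 to 0.0631 in the rest, so the numbers were not taken as pairs. With mouse number as a block, 5 genes were called higher in miR-Ctrl versus no BDL (3 of the 7 kept), 8 higher and 0 lower in anti-miR versus no BDL, and 0 between both BDL groups (median -1.13, lowest adjusted p = 0.119 in edgeR). Under the block Irf9 was -0.206 and Oas2 -0.267 between both BDL groups, Iigp1 -0.104 in miR-Ctrl versus no BDL, and Dhx58 -0.0154 and Ifi47 0.381 in anti-miR versus no BDL.

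In settings chosen after seeing the data, 36 genes were higher in miR-Ctrl without miR-Ctrl mouse 3 and no BDL mouse 5, and 28 higher and 0 lower in anti-miR without anti-miR mouse 2 and no BDL mouse 5, where Bst2 was 0.275, Gbp4 0.264, Gbp6 0.374, Igtp 0.0523, Irgm1 0.176, Irgm2 0.212, Ifi47 0.725 and Psmb9 0.486.

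Leaving out 1 mouse at a time gave 2 to 29 genes higher, 0 to 1 lower and a median of 0.49 to 1.34 in miR-Ctrl versus no BDL, 1 to 15 higher, 0 to 1 lower and 0.14 to 0.63 in anti-miR versus no BDL, and 0 called with -1.04 to -0.2 between both BDL groups. Genes whose direction turned ranged, between both BDL groups, from -0.901 to 0.00513 for Irf1, -0.616 to 0.0531 for Irf8, -0.152 to 0.171 for Irf9, -0.262 to 0.127 for Stat2, -0.805 to 0.00851 for Ifit2, -0.223 to 0.384 for Oas2, -0.795 to 0.108 for Oas3, -2.05 to 0.0405 for Gbp5 and -1.28 to 0.0506 for Gbp7. In miR-Ctrl versus no BDL they ranged from -0.143 to 0.166 for Irf9, -0.0319 to 0.256 for Stat2, -0.0525 to 0.46 for Xaf1, -0.438 to 1.45 for Gbp4, -0.653 to 1.11 for Gbp6, -0.332 to 0.773 for Gbp7, -0.374 to 1.24 for Igtp, -0.0648 to 0.869 for Irgm1, -0.0232 to 0.902 for Irgm2, -0.547 to 0.185 for Iigp1 and -0.0634 to 1.2 for Ifi47. In anti-miR versus no BDL they ranged from -0.1 to 0.191 for Irf9, -0.107 to 0.202 for Stat2, -0.0761 to 0.265 for Ifih1, -0.0712 to 0.378 for Dhx58, -0.498 to 0.102 for Bst2, -0.0443 to 0.554 for Rtp4, -0.159 to 0.208 for Xaf1, -1.26 to 0.0399 for Gbp6, -0.513 to 0.0189 for Irgm2, -0.256 to 1.66 for Tgtp1, -0.624 to 0.495 for Ifi47 and -0.273 to 0.276 for Psmb9. Groups of 3 to 5 mice limit the precision of every fold change.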
